A study of Mus musculus with 22 samples.

Results

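Microglia of wild-type (WT) mice fed both cuprizone and Covi-Ox (WT both, 3 arrays) were compared across all genes with microglia of WT mice fed Covi-Ox without cuprizone (WT Covi-Ox, 3 arrays). These 6 arrays were taken by their titles out of 22 in the series. The other arrays came from WT mice on chow (WT control, 2 arrays), WT mice fed cuprizone without Covi-Ox (WT cuprizone, 3 arrays) and Trem2 knockout mice (11 arrays in 4 groups, of which 6 arrays carry contradictory diet labels). All 6 arrays were therefore of mice with intact Trem2 that ate Covi-Ox, and cuprizone was the labelled difference between them. Covi-Ox was mixed into the feed at 0.1%, with added alpha tocopherol at 1100 IU per g, and cuprizone at 0.2%. The labels give 4 weeks of treatment for both groups. By the protocol, mice on both additives had Covi-Ox for 2 weeks before cuprizone began; the sources used here do not say whether the WT Covi-Ox mice were fed ahead in the same way, so time on Covi-Ox and cuprizone cannot be told apart if it differed. The cells were sorted as positive for CD11b, CD45 and F4/80, a gate that other brain macrophages can also pass. Age, sex and pooling of animals are not given, and nothing says that replicates came from separate mice. The p-values below therefore measure only the spread between samples within groups, estimated over all 22 arrays and not from these 6 alone.

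Cuprizone chelates copper and, fed to mice, kills oligodendrocytes, which leaves microglia to clear cholesterol-rich myelin debris. Microglia engaged in such clearance lower genes of their resting program and raise a set known as the disease-associated microglia (DAM) program, whose late stage depends on TREM2, a lipid-sensing receptor that signals through the adaptor TYROBP. Debris is broken down in lysosomes, and its cholesterol is esterified, oxidised or exported on apolipoprotein E particles. Tocopherols are the vitamin E family of lipid-soluble antioxidants, of which Covi-Ox is a mixture.

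Median probe set intensity ran from 36.1 to 38.6 over the 22 arrays, and the immediate-early genes, which rise while cells are isolated, averaged 9.70 to 9.78 (log2) on the 6 arrays compared. Trem2 lay at 1022 to 1724 on the WT arrays and at 84.5 to 113.9 on the knockout arrays. The first principal component of the 6 arrays took 58.8% of their variance and put WT both at -20.16 to -16.94 and WT Covi-Ox at 17.23 to 20.06. All 26 homeostatic microglia genes on the array (of 28 listed) were above the array median on all 6 arrays. RMA gives each array nearly the same distribution, so total RNA per cell is not measured, and in sorted bulk cells fewer cells of a type and less RNA per cell cannot be told apart.

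Among 11830 genes tested, 550 were higher in WT both than in WT Covi-Ox (4.65%) and 375 were lower (3.17%), 925 in all (7.82%), at a limma adjusted p under 0.05. The rises were larger than the falls: 154 genes rose at least 2-fold (1.30% of those tested) and 14 fell at least 2-fold (0.118%). Of the rises, 42 reached 4-fold, 12 reached 8-fold and 5 reached 16-fold. The median difference over all genes tested was -0.03 (log2), and all but 5 of the called genes had groups that did not overlap, as had 13.1% of all genes above and 17.5% below. In 63 of the genes that rose, all 3 WT Covi-Ox arrays lay below the array median, near the array's floor, where a fold is less exact. The count was 531 without WT both 2, 564 without WT Covi-Ox 2 and 603 without WT both 3.

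**Figure D1:**
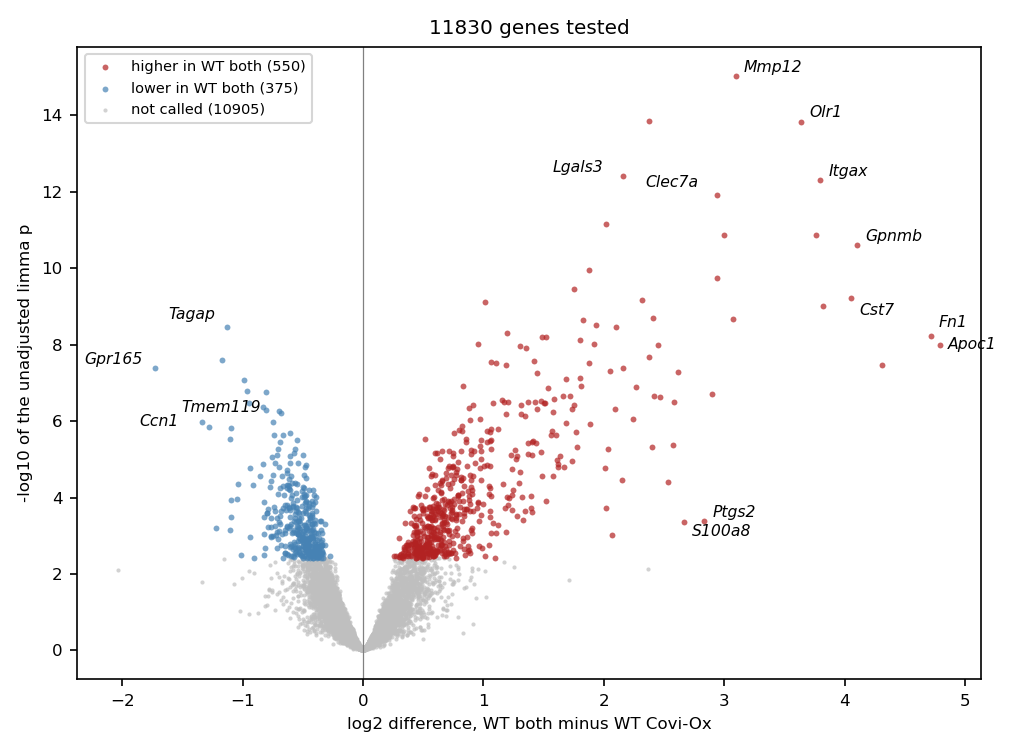
Each point is 1 of 11830 genes, with the log2 difference of WT both minus WT Covi-Ox (3 arrays each) on the x axis and -log10 of the unadjusted limma p on the y axis. The 550 genes called higher reach 4.79, while the called falls end at -1.73.

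Apoc1, an apolipoprotein of cholesterol-rich particles, had the largest difference, with intensities of 1274, 998 and 1221 in WT both, against 43.7, 37.5 and 44.9 in WT Covi-Ox. It was 27.6-fold higher, a log2 difference of 4.79 ± 0.51 (limma standard error, as for every ± on a difference here; adjusted p = 3.79e-06). Ch25h, which makes 25-hydroxycholesterol, stood at 391, 519 and 496 in WT both, against 27.6, 20.7 and 22.8 in WT Covi-Ox (4.31 ± 0.49, adjusted p = 9.86e-06). Lpl, the lipase that frees fatty acids from lipoproteins, stood at 895, 974 and 789.8 in WT both, against 50.5, 73.2 and 75.3 in WT Covi-Ox (3.76 ± 0.27, adjusted p = 1.77e-08). The groups were far apart in all 3 genes, and the spread between replicates was small beside the difference.

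Genes with other roles had rises of like size. Fn1, the matrix protein fibronectin, measured 614, 772 and 631 in WT both, against 25.2, 26.0 and 25.3 in WT Covi-Ox (4.71 ± 0.48, adjusted p = 2.73e-06). Cst7, an inhibitor of lysosomal cysteine proteases, measured 2692, 2914 and 2583 in WT both, against 161, 125 and 222 in WT Covi-Ox (4.05 ± 0.36, adjusted p = 5.13e-07) and was thereby among the brighter probe sets of WT both. Gpnmb, a transmembrane glycoprotein of phagocytes, measured 537, 676 and 498 in WT both, against 27.2, 36.8 and 35.7 in WT Covi-Ox (4.10 ± 0.30, adjusted p = 2.91e-08). The WT Covi-Ox levels of Fn1, Ch25h and Gpnmb lay below or at the array medians, whereas Cst7 was already above them. Itgax, the CD11c integrin chain, had 684, 701 and 728 in WT both, against 52.1, 59.3 and 42.4 in WT Covi-Ox (3.79 ± 0.23, adjusted p = 1.18e-09). Mmp12, the macrophage elastase, had 264, 342 and 243 in WT both, against 35.5, 29.6 and 33.4 in WT Covi-Ox and the smallest p of the comparison (3.09 ± 0.13, adjusted p = 1.09e-11). Bhlhe40, a transcriptional repressor that responds to activation, had 184, 214 and 176 in WT both, against 13.6, 14.2 and 12.8 in WT Covi-Ox (3.82 ± 0.35, adjusted p = 6.73e-07). The other large rises were Olr1 (3.64), a receptor for oxidised low-density lipoprotein, the fatty acid carrier Fabp5 (3.07), the receptor tyrosine kinase Axl (3.00), the proton pump subunit Atp6v0d2 (2.94), the beta-glucan receptor Clec7a (2.93) and the lectin-like receptor Klrb1b (2.89).

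**Figure D2:**
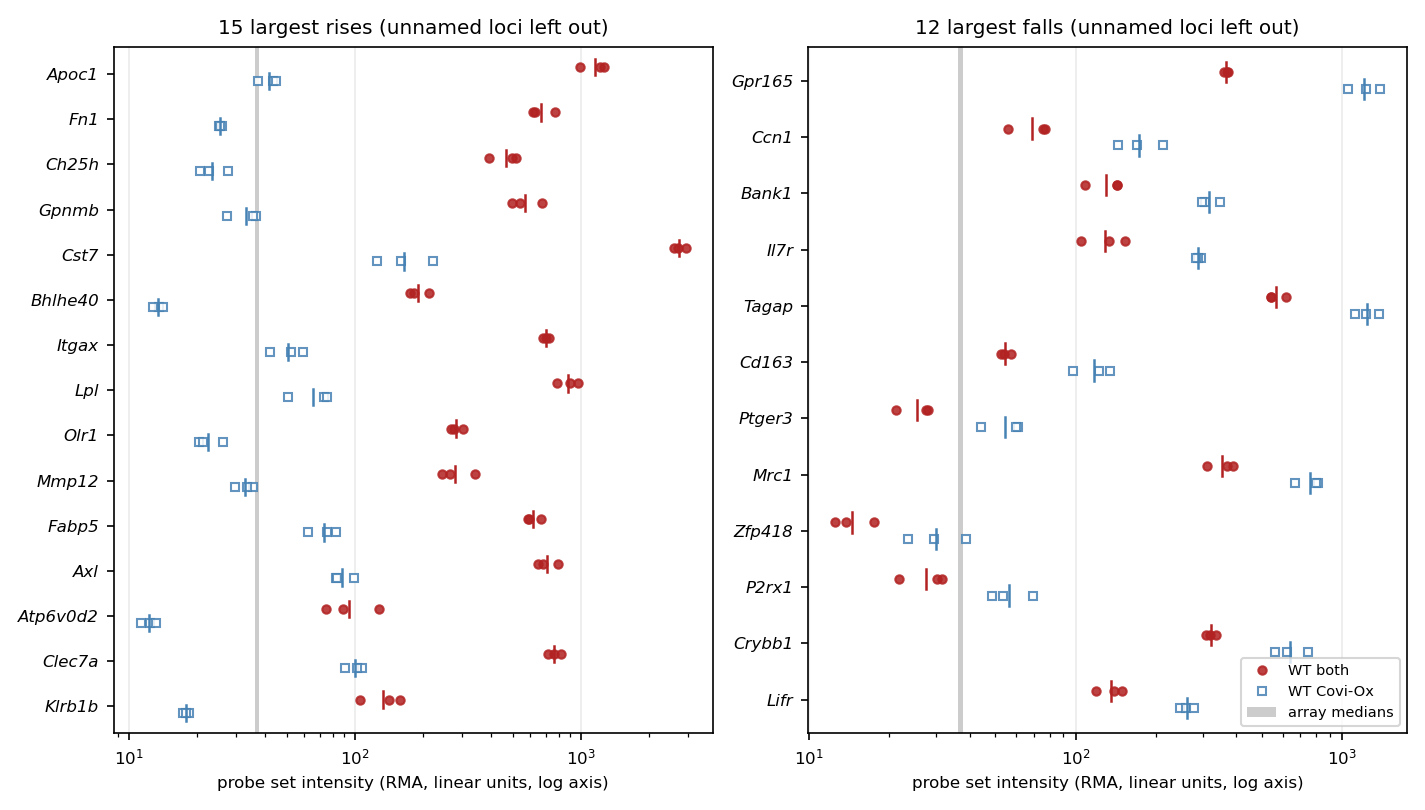
Intensity on each of the 6 arrays (log axis) for the 15 largest rises and 12 largest falls with non-overlapping groups, circles for WT both and squares for WT Covi-Ox, with a bar at each geometric mean and a grey band at the array medians. The rises are separated by up to 27.6-fold (Apoc1), and Gpr165 is the widest-set fall.

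Genes of the late, TREM2-dependent DAM stage rose almost as a whole. Of 26 members tested, 24 were higher and none was lower, with a median log2 difference of 1.69 against -0.03 over all genes. Besides those above, Igf1, an insulin-like growth factor, had 292, 297 and 291 in WT both, against 61.0, 51.4 and 65.4 in WT Covi-Ox (2.31 ± 0.21, adjusted p = 5.38e-07). Lgals3, the galectin of damaged endosomes, had 364, 389.8 and 386 in WT both, against 75.9, 81.5 and 99.6 in WT Covi-Ox (2.16 ± 0.13, adjusted p = 1.14e-09). Csf1, the growth factor of the macrophage lineage, rose by 1.69 ± 0.20 and Nceh1, a cholesterol ester hydrolase, by 1.75 ± 0.23. The members not called were Cd9 (0.53) and Cd68 (0.10). Cd63 (0.42), a tetraspanin of late endosomes, was called on all arrays but not without WT both 2 or 3 or WT Covi-Ox 1 (adjusted p 0.0747 to 0.077).

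Early-stage DAM genes had smaller differences. In this list 6 of 10 rose, with a median of 0.37: Cstb, a cytosolic cathepsin inhibitor (1.06 ± 0.16), Apoe (0.75 ± 0.13), the lysosomal protease Ctsb (0.40), Timp2 (0.49) and the ferritin chains Ftl1 (0.58) and Fth1 (0.30). Ftl1 was not called without WT both 1, 2 or 3 or WT Covi-Ox 1 or 2 (adjusted p 0.0866 to 0.193), Fth1 without WT both 2 or 3 or WT Covi-Ox 1, 2 or 3 (adjusted p 0.0557 to 0.0843), and Ctsb without WT both 2 or WT Covi-Ox 2 (adjusted p 0.0578 to 0.0691). Apoe was bright in both groups, at 6953, 7302 and 6968 in WT both, against 4295, 4018 and 4321 in WT Covi-Ox (adjusted p = 0.00102). The count of rises was 3 without WT both 2 or WT Covi-Ox 2. Tyrobp differed by 0.11 ± 0.08 (adjusted p = 0.533) and B2m, the light chain of class I molecules, by -0.0018.

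Trem2 itself did not pass the test, with 1491, 1424 and 1369.9 in WT both, against 1291, 1022 and 1192 in WT Covi-Ox and a difference of 0.30 ± 0.11 (adjusted p = 0.129), although the groups did not overlap. Trem2 was called in 1 of 22 alternative runs, over which its limma adjusted p ran from 0.0398 to 0.44. Among 16 genes of TREM2 and TYROBP signalling tested, 1 was higher and 1 lower. The kinase Syk (-0.38), the lipase Plcg2 (-0.23) and the phosphoinositide 3-kinase subunit Pik3r1 (-0.35) were not called. Inpp5d, the inositol phosphatase SHIP1, had a difference of -0.44 and Hcst, an adaptor like TYROBP, of 0.62. Inpp5d was not called without WT both 1 or 2 or WT Covi-Ox 2 or 3 (adjusted p 0.058 to 0.0689), nor Hcst without WT both 1, 2 or 3 or WT Covi-Ox 2 or 3 (adjusted p 0.0596 to 0.185).

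Genes for taking up, storing and exporting lipid rose on several lines. Of 15 uptake and storage genes, 6 were higher and 1 lower (median 0.32). They included Plin2, the coat protein of lipid droplets (1.42 ± 0.16, adjusted p = 8.45e-06), Fabp3 (1.32) and Lipa, the lysosomal acid lipase (0.65). Mgll, which breaks down monoglycerides, fell (-0.69) but was not called without WT both 2 or WT Covi-Ox 1 (adjusted p 0.0714 to 0.0843). The scavenger receptors Msr1 (0.42), Scarb1 (0.32) and Cd36 (0.13) did not pass. In the cholesterol efflux and LXR target list 8 of 17 rose and none fell (median 0.37): beside Apoc1, Ch25h, Nceh1 and Apoe these were Apoc4 (1.67 ± 0.29), the mitochondrial protein Tspo (1.29), Osbpl3 (0.47) and the cholesterol exporter Abca1 (0.37). Osbpl3 was not called without WT both 1 or 2 or WT Covi-Ox 2 or 3 (adjusted p 0.0855 to 0.144), nor Abca1 without WT both 2 or 3 or WT Covi-Ox 1, 2 or 3 (adjusted p 0.0526 to 0.147). Abcg1, the second exporter, differed by 0.48 ± 0.17 (adjusted p = 0.0991). Of 19 genes of cholesterol and fatty acid synthesis 2 rose: Acaca, which makes malonyl-CoA (1.41 ± 0.22), and Scd2, a fatty acid desaturase (1.12 ± 0.27), which was not called without WT both 2 or WT Covi-Ox 2 (adjusted p 0.064 to 0.0649). The sterol enzymes Hmgcs1 (-0.12) and Sqle (-0.04) were not called. None of 14 fatty acid oxidation genes was called.

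Lysosomal genes rose in part. In all, 9 of 32 enzymes and membrane proteins were higher and none lower, with a median of 0.08. Those with the largest differences were Galns, a sulfatase (0.96 ± 0.20), Gnptab, which tags enzymes for delivery to the lysosome (0.82 ± 0.13), Gla, alpha-galactosidase (0.80 ± 0.17), and Naglu, which degrades heparan sulfate (0.73 ± 0.15). The number of rises in this list was 6 without WT both 1 or WT Covi-Ox 2 and 8 without WT both 2 or WT Covi-Ox 1 or 3. The abundant membrane proteins Lamp1 (0.09) and Lamp2 (0.01) and the progranulin gene Grn (0.15) were not called. In the protease list, 7 of 14 cathepsins and cystatins rose, led by Cst7 and by Ctse, an endosomal aspartic protease, with 171, 212 and 139 in WT both, against 30.9, 29.4 and 36.4 in WT Covi-Ox (2.42 ± 0.31, adjusted p = 4.46e-05). Ctsz (0.65), Ctsh (0.45), Ctsl (0.42) and Ctsb also rose, though Ctsh was not called without WT both 1, 2 or 3 or WT Covi-Ox 1 or 2 (adjusted p 0.053 to 0.119), while Ctsd (0.14), Ctss (-0.09) and Cst3 (-0.14) were not called. Among 17 vacuolar proton pump genes 3 rose and 2 fell. Atp6v0d2, a subunit enriched in macrophages and osteoclasts, had 128, 74.4 and 88.6 in WT both, against 12.4, 11.3 and 13.3 in WT Covi-Ox (2.94 ± 0.24, adjusted p = 1.79e-07). Its ubiquitous counterpart Atp6v0d1 (0.21) was not called, and Atp6v0a2 (-0.49) fell.

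Of the called lysosomal genes, 8 of 9 had a promoter in the RefSeq table (GRCm38.p6, 250 bases before to 50 after the start). CACGTG, the core of the element bound by TFEB-family factors and the same on both strands, was in 5 of their 9 windows (55.6%), against 7.15% of all 32851 windows and 9.9% of windows of tested genes. For the late DAM genes that rose it was in 3 of 20 windows. Besides Gla and Naglu, the lysosomal genes with the hexamer were Glb1, Gaa and Cln3. Cln3 was not called without WT both 1 or 2 or WT Covi-Ox 1, 2 or 3 (limma adjusted p 0.0719 to 0.192). Glb1 was not called without WT both 1 or WT Covi-Ox 2 (adjusted p 0.0586 to 0.0686), nor Gaa without WT both 1 (adjusted p = 0.0526). A match is a description of these letters and not a mapped site, and uncalled members of the lists were not set beside the called ones. Gla and Naglu are shown since both rose and carry the hexamer, which is in capitals; sequences run 5′ to 3′ on the gene's strand.
Gla, chrX:134600956-134601255, minus strand: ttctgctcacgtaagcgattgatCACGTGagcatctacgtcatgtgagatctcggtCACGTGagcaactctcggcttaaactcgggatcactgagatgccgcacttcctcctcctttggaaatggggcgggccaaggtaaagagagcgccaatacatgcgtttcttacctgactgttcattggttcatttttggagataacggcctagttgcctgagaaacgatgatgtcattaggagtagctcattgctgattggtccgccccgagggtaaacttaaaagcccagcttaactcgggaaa
Naglu, chr11:101069844-101070143, plus strand: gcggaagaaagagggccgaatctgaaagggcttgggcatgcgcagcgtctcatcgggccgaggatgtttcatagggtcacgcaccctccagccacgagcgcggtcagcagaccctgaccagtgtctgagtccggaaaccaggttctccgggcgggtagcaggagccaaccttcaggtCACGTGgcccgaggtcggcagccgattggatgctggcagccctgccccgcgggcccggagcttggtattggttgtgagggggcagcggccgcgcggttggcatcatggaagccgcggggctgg

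Most interferon-stimulated genes rose. In this list 22 of 30 tested members were higher and none lower, with a median of 0.97. Ifi27l2a, a small interferon-induced membrane protein, had 2264, 2304 and 2224 in WT both, against 426, 268 and 444 in WT Covi-Ox (2.61 ± 0.31, adjusted p = 1.33e-05). Cxcl10, a chemokine for activated lymphocytes, had 1272, 1370.0 and 1406 in WT both, against 257, 356 and 402 in WT Covi-Ox (2.02 ± 0.44, adjusted p = 0.0064). Every one of these WT both arrays was above every WT Covi-Ox array. Oasl2, an antiviral oligoadenylate synthetase-like protein, rose by 1.60 ± 0.24 and Lgals3bp, a secreted galectin ligand, by 1.56 ± 0.24. Usp18 (1.44), Oas1a (1.40), Ifit3 (1.37), Ifitm3 (1.32), Irf7 (1.24) and Slfn5 (1.47) were also higher. The transcription factor subunits Stat2 (0.29) and Irf9 (0.21) were not called.

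Many promoters of these genes hold a short element. GAAA, any 2 bases and GAAA again, the core of the interferon-stimulated response element, searched on both strands, was in 11 of 19 RefSeq windows (57.9%) of the called members, from 17 of the 22 genes with a promoter in the table. It was in 3.44% of all windows and 3.01% of windows of tested genes. Uncalled members of the list were not set beside them, so these shares cannot tell a rise from membership of the list. Cxcl10, Slfn5 and Oas1a are printed since they had large rises and carry the element, which is in capitals. Oasl2 and Lgals3bp rose more than Slfn5 and Oas1a, and their windows hold no match. In Cxcl10 the first base of the element is 213 bases before the start and in Slfn5 155. In Oas1a 2 matches that overlap begin 20 and 14 bases before the start.
Cxcl10, chr5:92348840-92349139, minus strand: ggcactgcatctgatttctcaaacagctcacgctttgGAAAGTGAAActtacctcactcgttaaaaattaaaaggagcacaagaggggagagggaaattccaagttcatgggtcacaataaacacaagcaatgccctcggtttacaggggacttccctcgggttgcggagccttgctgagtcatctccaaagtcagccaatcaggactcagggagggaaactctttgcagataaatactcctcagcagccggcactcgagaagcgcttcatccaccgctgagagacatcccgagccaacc
Slfn5, chr11:82951852-82952151, plus strand: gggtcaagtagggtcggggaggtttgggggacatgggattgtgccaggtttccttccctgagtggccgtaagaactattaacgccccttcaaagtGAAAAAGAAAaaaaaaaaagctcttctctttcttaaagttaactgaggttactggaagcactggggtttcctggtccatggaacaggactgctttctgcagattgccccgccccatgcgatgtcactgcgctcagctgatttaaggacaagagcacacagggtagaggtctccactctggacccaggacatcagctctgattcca
Oas1a, chr5:120907476-120907775, minus strand: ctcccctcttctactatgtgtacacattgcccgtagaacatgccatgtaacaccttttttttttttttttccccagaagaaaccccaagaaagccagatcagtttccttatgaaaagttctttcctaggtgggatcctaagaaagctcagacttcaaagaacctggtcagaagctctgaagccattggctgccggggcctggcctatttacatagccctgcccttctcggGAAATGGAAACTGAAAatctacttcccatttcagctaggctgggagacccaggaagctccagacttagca

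Fewer genes of antigen presentation were called. In all, 4 of 13 class I and immunoproteasome genes rose, among them the peptide transporter Tap1 (0.71 ± 0.15) and the proteasome activator Psme1 (0.61 ± 0.10). The count was 2 without WT Covi-Ox 2. Of 14 class II and costimulation genes 2 rose: Cd274, the ligand PD-L1 (1.31 ± 0.14), and the invariant chain Cd74 (0.66 ± 0.14). H2-Ab1 (0.54), H2-Aa (0.41) and Cd86 (0.08) were not called. For chemokines, 3 of 10 CC members rose, led by Ccl6 (1.58 ± 0.22) and Ccl5 (1.40 ± 0.31), and 4 of 8 CXC members rose, with Cxcl14 (1.73 ± 0.24) and Cxcl9 (1.62 ± 0.28) next after Cxcl10. Pf4, platelet factor 4 (-0.80), fell but was not called without WT both 2 (adjusted p = 0.0517). Ccl2 differed by 0.04 and Ccl3 by 0.34, neither called.

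Inflammatory mediators rose in 7 of 19 cases (median 0.49). Ptgs2, the inducible cyclooxygenase, had 1304, 1326 and 1299.5 in WT both, against 202, 169.9 and 183 in WT Covi-Ox (2.83 ± 0.67, adjusted p = 0.0106), with a wide standard error. The tumour necrosis factor family ligands Tnfsf9 (2.53 ± 0.48, adjusted p = 0.00211) and Tnfsf8 (2.24 ± 0.32, adjusted p = 0.000118) and the interleukin-1 receptor antagonist Il1rn (1.88 ± 0.15, adjusted p = 1.18e-07) also rose. Il1b had 1823, 2250.5 and 1943 in WT both, against 359.7, 392 and 414 in WT Covi-Ox and was not called (2.36 ± 0.79, adjusted p = 0.0748), nor was Tnf (1.02). The spread is shared with 3 cuprizone-fed arrays (1 WT on chow, 2 knockout) that stood apart with immediate-early means of 8.57 to 8.78, and on which activation genes differed: Il1b had 97.3 on WT cuprizone 3 and 1240.0 and 1127 on its group's other arrays. Without these 3 arrays, none of which is in the contrast, Il1b (2.28e-08), Tnf (0.000564), Ccl3 (0.00873), Ccl4 (0.00293) and Cxcl13 (0.000653) passed at unchanged differences, at the adjusted p given in brackets, and 10 members of the inflammatory list and 1370 genes in all were called. Of 15 NF-kB pathway genes 1 rose, Tnfaip2, not called without WT both 2 or WT Covi-Ox 1 or 3 (adjusted p 0.0541 to 0.134). The immediate-early list had 1 of 32 called (median -0.05), Maff, which lost its call when any 1 of the 6 arrays was left out (adjusted p 0.075 to 0.131).

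Among receptors, rises were few in each family. Itgb2, the shared beta chain of CD11 integrins, rose by 0.42 ± 0.09, Fcgr4, an activating receptor for immunoglobulin G, by 1.40 ± 0.23, and Tlr2, the sensor of bacterial lipoproteins, by 1.01 ± 0.09. Of the phagocytic receptors 4 of 25 rose and 2 fell, the scavenger receptor Stab1 (-0.42) and the integrin chain Itgav (-0.28). Itgav lost its call when any 1 of the 6 arrays was left out (adjusted p 0.054 to 0.198). The complement C1q chains C1qa (-0.04), C1qb (-0.12) and C1qc (-0.05) were not called, and neither was the complement receptor subunit Itgam (-0.20). In the Ms4a and Siglec families 5 of 16 rose and 3 fell: Siglecf (1.26 ± 0.20) and Cd22 (1.19 ± 0.16), sialic acid receptors, were higher, and Siglech (-0.68 ± 0.09), Siglece (-0.75) and Cd33 (-0.54) were lower. The smaller families stand beside shares over all genes of 4.65% higher and 3.17% lower. Among 13 integrins, Itgax, Itgb2 and Itgal rose and Itgav fell. Itgal lost its call when any 1 of the 6 arrays was left out (adjusted p 0.052 to 0.166). Toll-like receptor signalling had 2 of 17 genes higher. Of 12 C-type lectin receptors 1 rose and 1 fell, Mrc1 (none fell without WT both 2 and 2 without WT both 1). The 2 of 13 complement genes that rose were again Itgax and Itgb2. Likewise 3 of 15 tetraspanins and galectins and 1 of 5 Fc gamma receptor genes rose. Of 7 nucleotide-sensing genes 5 fell (3 without WT both 1, 2 or 3 or WT Covi-Ox 1 or 2): P2ry12, P2ry13 and Gpr34 (-0.42), the ATP-gated channel P2rx7 (-0.35), not called without WT both 1, 2 or 3 or WT Covi-Ox 1 or 2 (adjusted p 0.0547 to 0.217), and the ectonucleotidase Entpd1 (-0.41), not called without any 1 of the 6 arrays (adjusted p 0.0688 to 0.131). In the same list P2rx4, another such channel, rose by 0.90 ± 0.15.

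Growth factor and tissue-remodelling genes rose as well. In all, 5 of 13 trophic factors were higher, including Igf1, Csf1 and the vessel growth factor Vegfa, which had 207, 197 and 134 in WT both, against 64.5, 72.5 and 72.2 in WT Covi-Ox (1.34 ± 0.19, adjusted p = 9.78e-05). The granulocyte-macrophage colony-stimulating factor receptor chain Csf2ra rose by 0.98 ± 0.17. Of 7 colony-stimulating factor and receptor genes 3 rose and 1 fell. In the matrix list 7 of 19 rose and none fell, with Cd44, the hyaluronan receptor (2.01 ± 0.14), and Thbs1, thrombospondin (0.89 ± 0.16), next after Fn1 and Mmp12. Likewise 6 of 21 cytoskeletal genes rose: Capg, an actin-capping protein, had 395, 447 and 435 in WT both, against 89.1, 70.3 and 75.4 in WT Covi-Ox (2.45 ± 0.26, adjusted p = 3.79e-06), and Myo1e (1.62), Vim (1.51) and Tmsb10 (1.44) were among the others. Actb (-0.08) was not called.

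Glycolytic and hypoxia-responsive genes rose in 15 of 19 cases (median 0.85). Egln3, an oxygen-sensing prolyl hydroxylase, had 166, 165 and 125 in WT both, against 21.3, 32.1 and 29.4 in WT Covi-Ox (2.47 ± 0.32, adjusted p = 4.46e-05). Pgk1, phosphoglycerate kinase, had 718, 742 and 737 in WT both, against 298, 267 and 286 in WT Covi-Ox (1.37 ± 0.18, adjusted p = 5.44e-05). The cytokine Mif (1.54), Bnip3, a mitophagy receptor (1.06), Pkm (1.06), the glucose transporter Slc2a1 (0.89), the lactate exporter Slc16a3 (0.86), Ldha (0.83) and Hif1a (0.56) were higher too, Bnip3 not without WT both 2 (adjusted p = 0.0671) and Hif1a not without WT Covi-Ox 1 (adjusted p = 0.051). The hexokinases Hk1 (0.15) and Hk2 (-0.03) were not called.

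ACGTG, the core that hypoxia-inducible factors bind, searched on both strands, was in 14 of 20 windows (70.0%) of the 15 called members, all of which had a promoter in the table. It was in 19.6% of all windows and 25.1% of windows of tested genes. Here too, uncalled members of the list were not set beside them. CACGTG contains ACGTG on both strands, so the shares of these motifs overlap. Egln3 and Pgk1 are printed as members with large rises, the motif in capitals; in Egln3 it begins 229 bases before the start and in Pgk1 150 and 131 before.
Egln3, chr12:54203825-54204124, minus strand: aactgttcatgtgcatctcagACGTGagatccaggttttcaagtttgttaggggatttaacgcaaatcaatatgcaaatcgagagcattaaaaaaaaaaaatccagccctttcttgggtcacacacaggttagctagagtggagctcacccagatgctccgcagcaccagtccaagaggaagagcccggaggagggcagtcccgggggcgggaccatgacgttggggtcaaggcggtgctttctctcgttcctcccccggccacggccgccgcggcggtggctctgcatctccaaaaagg
Pgk1, chrX:106186850-106187149, plus strand: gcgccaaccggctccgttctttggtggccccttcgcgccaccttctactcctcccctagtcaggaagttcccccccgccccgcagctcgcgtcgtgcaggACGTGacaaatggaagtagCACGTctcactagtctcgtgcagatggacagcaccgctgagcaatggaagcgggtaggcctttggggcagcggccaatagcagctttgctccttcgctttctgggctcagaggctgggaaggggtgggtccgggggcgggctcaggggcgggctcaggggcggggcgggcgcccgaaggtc

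Mitochondrial and stress genes had smaller differences. In all, 11 of 32 oxidative phosphorylation genes rose and none fell (median 0.35), the largest being Ndufa1 (0.99 ± 0.21). That count was 4 without WT Covi-Ox 2, 6 without WT both 2 and 7 without WT both 1 or 3 or WT Covi-Ox 3. Antioxidant and NRF2 target genes rose in 4 of 22 cases: the cystine transporter Slc7a11 (1.24 ± 0.22), Txn1 (0.74 ± 0.13) and Prdx1 (0.69 ± 0.13) were higher, and Gclc, which starts glutathione synthesis, was lower (-0.51), though not called without WT both 1, 2 or 3 or WT Covi-Ox 2 or 3 (adjusted p 0.084 to 0.206). Hmox1, heme oxygenase, had 869.9, 947 and 787 in WT both, against 633, 825 and 819.8 in WT Covi-Ox and was not called (0.20 ± 0.25, adjusted p = 0.719), nor was Gclm (-0.23). Among 21 copper, zinc and metallothionein genes, the copper chaperones Atox1 (0.86 ± 0.13) and Cox17 (0.65 ± 0.13) rose, ceruloplasmin, Cp (-0.65), fell, and Mt1 (0.19) and Mt2 (-0.32) were not called. The Cp call was lost without WT both 2 or WT Covi-Ox 1 or 3 (adjusted p 0.0805 to 0.18). Of 13 iron genes 2 rose and 3 fell, led by the exporter Slc40a1 (-0.73 ± 0.16, adjusted p = 0.00695). The ferritin chains were its rises, a count that was none without WT both 2 or 3 or WT Covi-Ox 1 or 2 and 1 without WT both 1 or WT Covi-Ox 3. Cp and Hfe were its other falls, and the number that fell was 1 without WT both 2 or WT Covi-Ox 1 or 3. In the pentose phosphate list 2 of 6 rose, Pgls (0.66) and Pgd (0.44), a count that was none without WT both 1 or WT Covi-Ox 1 or 2 and 1 without WT both 2 or 3 or WT Covi-Ox 3. In the vitamin E handling list 2 of 9 rose and 2 fell. The rises were Tap1, which carries peptides and not tocopherol, and Sec14l2, the tocopherol-associated protein (0.46), not called without WT both 1 or 3 or WT Covi-Ox 1, 2 or 3 (adjusted p 0.0505 to 0.123). The falls were Alox5ap, which presents substrate to 5-lipoxygenase (-0.55 ± 0.09), and Ltc4s, leukotriene C4 synthase (-0.46), which lost its call when any 1 of the 6 arrays was left out (adjusted p 0.0505 to 0.163). None of 18 unfolded protein response genes was called (1 without WT Covi-Ox 1), 1 of 15 heat shock genes rose (Hspe1, 0.73), and the amino acid response list had Psat1 (1.78 ± 0.28) and Slc7a11 higher and 1 lower of 20 (Ddit4, -0.70), not called without WT both 3 or WT Covi-Ox 1 or 3 (adjusted p 0.0755 to 0.113).

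Cell cycle genes were higher in 8 of 22 tested members of 36 listed (median 0.33), and that count was 2 without WT Covi-Ox 3, 3 without WT both 2 or WT Covi-Ox 1 or 2, 4 without WT both 3 and 5 without WT both 1. Top2a, the topoisomerase of replicating cells, had 45.3, 58.1 and 43.9 in WT both, against 19.5, 20.7 and 24.8 in WT Covi-Ox (1.18 ± 0.26, adjusted p = 0.0064). Stmn1, a regulator of microtubules, rose by 1.01 ± 0.18. Ccna2 (1.01) and Cdk1 (0.96) drive the cycle; Ccna2 lost its call when any 1 of the 6 arrays was left out and Cdk1 without WT both 1 or 2 or WT Covi-Ox 2 or 3 (adjusted p 0.0705 to 0.141). Mki67 lay under the detection filter, at 4.24 to 5.18 (log2) over all arrays, and was not tested.

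**Figure D3:**
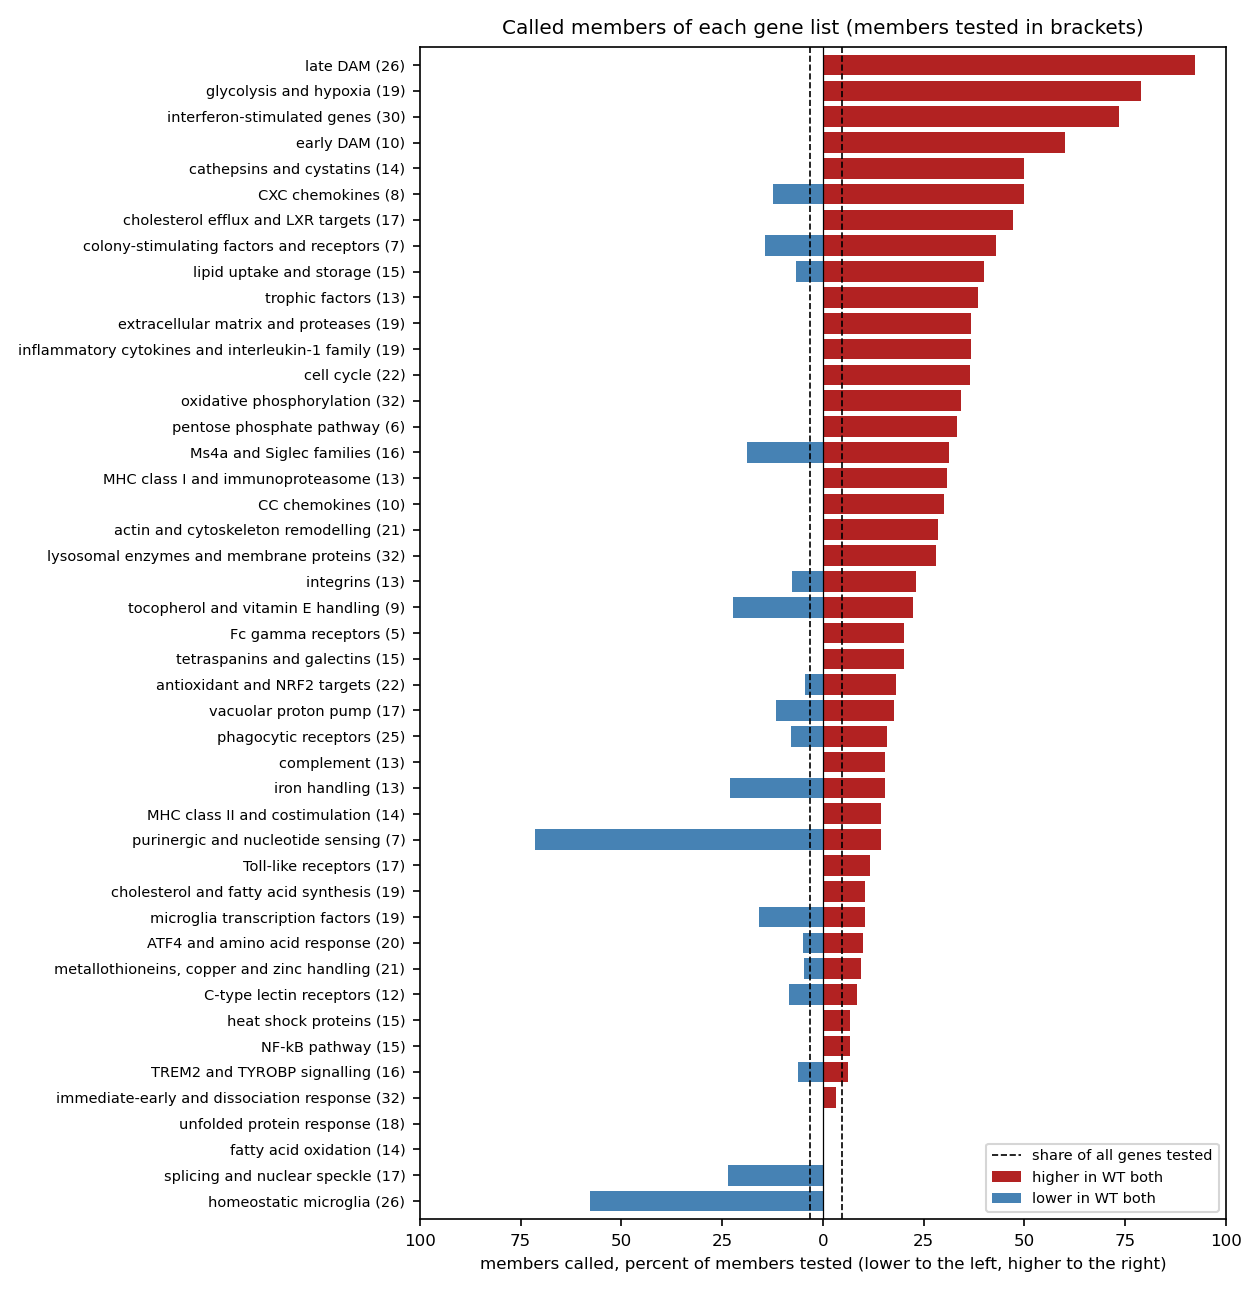
Percent of tested members called higher (red, to the right) and lower (blue, to the left) in WT both than in WT Covi-Ox, for each gene list, with members tested in brackets and dashed lines at 4.65% higher and 3.17% lower over all genes. The late DAM list reaches 92.3% higher.

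The falls included genes of resting microglia and of brain-border macrophages. Gpr165, an orphan receptor, had 374, 369.6 and 359.7 in WT both, against 1232, 1389.7 and 1053 in WT Covi-Ox (-1.73 ± 0.20, adjusted p = 1.09e-05). The prostaglandin receptor Ptger3 (-1.10 ± 0.16), the ATP-gated channel P2rx1 (-1.04 ± 0.20) and the leukemia inhibitory factor receptor Lifr (-0.94 ± 0.13) also fell. Of 26 homeostatic genes 15 fell and none rose, with a median of -0.40. Their summed intensity was 46637 to 47498 in WT both and 60202 to 61215 in WT Covi-Ox, with no overlap. Bank1, a signalling scaffold, had 144, 108 and 143 in WT both, against 305, 299 and 350.0 in WT Covi-Ox (-1.28 ± 0.19, adjusted p = 0.00017). Crybb1, a crystallin made by maturing microglia, had 337, 320.1 and 308 in WT both, against 749, 621 and 561 in WT Covi-Ox (-0.99 ± 0.12, adjusted p = 2.02e-05). Tmem119 (-0.61 ± 0.09, adjusted p = 0.00023), a membrane protein used as a microglia marker, the fructose transporter Slc2a5 (-0.82) and the nucleotide receptors P2ry12 (-0.39 ± 0.08, adjusted p = 0.00409) and P2ry13 (-0.51) were lower.

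Smaller falls were those of the fractalkine receptor Cx3cr1, with 3932, 3885 and 4009 in WT both, against 5106, 5369.6 and 5271 in WT Covi-Ox (-0.41 ± 0.09, adjusted p = 0.00545), and the growth factor receptor Csf1r (-0.31 ± 0.08, adjusted p = 0.0124), which was not called without WT Covi-Ox 2 (adjusted p = 0.0525). The transcription factor Sall1 (-0.54) was not called without WT both 2 or WT Covi-Ox 1 or 2 (adjusted p 0.0595 to 0.0637). Members not called included Cst3, Olfml3 (-0.23), Fcrls (-0.22), Sparc (-0.23), Mertk (-0.45) and Lag3 (0.34). Lag3 was the only member with a positive difference. Of the transcription factors tested, 2 of 19 rose (Bhlhe40 and Mitf, 0.53) and 3 fell (Tfe3, -0.34; Sall1; Mef2a, -0.47). Tfe3 was not called without WT both 1, 2 or 3 or WT Covi-Ox 1 or 2 (adjusted p 0.0684 to 0.109), nor Mef2a without WT both 1, 2 or 3 or WT Covi-Ox 1, 2 or 3 (adjusted p 0.062 to 0.145). The number that fell was none without WT both 2 or WT Covi-Ox 1 or 2 and 1 without WT both 1 or 3. Splicing-speckle genes fell in 4 of 17 cases (median -0.35), a count that was none without WT Covi-Ox 2 or 3, 1 without WT both 1, 2 or 3 and 2 without WT Covi-Ox 1.

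**Figure D4:**
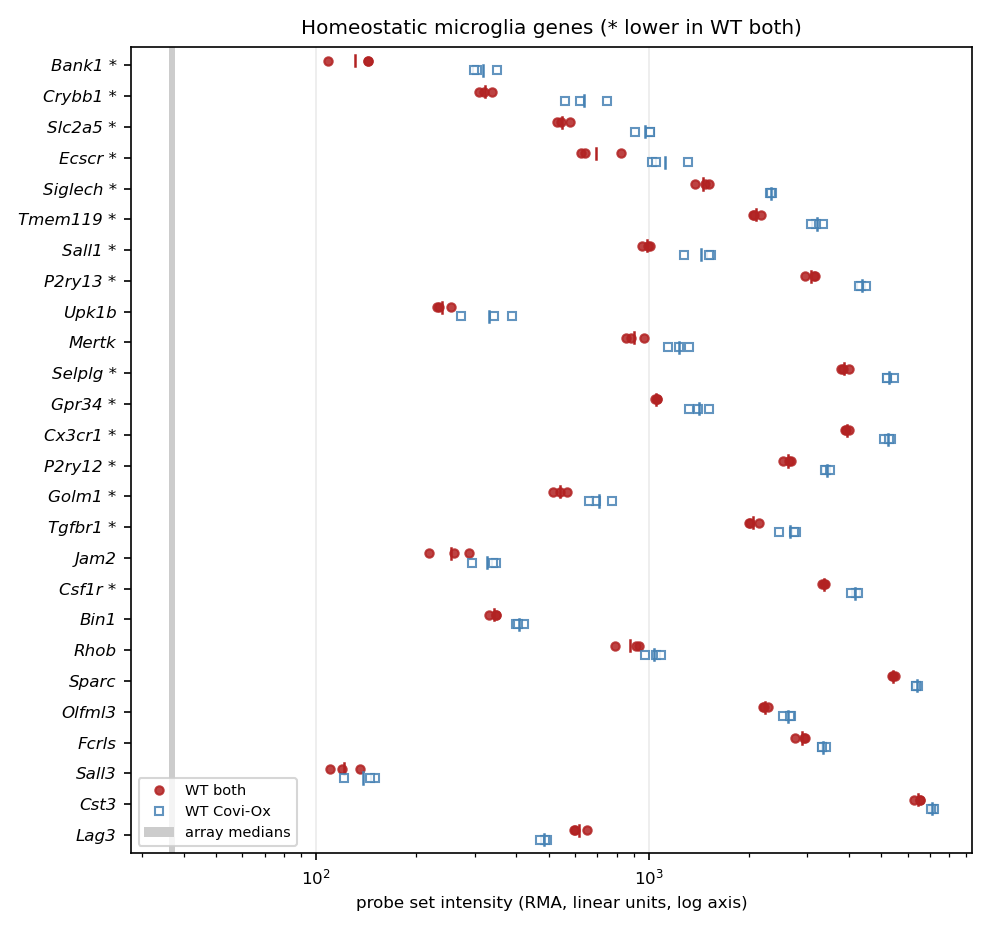
Intensity on each of the 6 arrays (log axis) of the 26 homeostatic microglia genes tested, circles for WT both and squares for WT Covi-Ox, bars at the geometric mean, with asterisks at the 15 called lower. Lag3 alone has WT both to the right.

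Markers of other cells moved with these results, and their part in them was not tested. Of 13 border macrophage markers, all on the array, 4 fell and 1 rose. The number that fell was 1 without WT both 2, and Siglec1 (0.78), the one that rose, was not called without WT both 1 or 2 or WT Covi-Ox 1 or 2 (adjusted p 0.0559 to 0.0877). Their summed intensity was 1947 to 2294 in WT both and 2943 to 3612 in WT Covi-Ox. Mrc1, the mannose receptor, had 369, 313 and 389 in WT both, against 812, 669 and 803 in WT Covi-Ox (-1.09 ± 0.25, adjusted p = 0.0091), and was not called without WT both 2 (adjusted p = 0.052). Cd163, the hemoglobin scavenger receptor, had 57.0, 54.0 and 52.6 in WT both, against 97.5, 122 and 135 in WT Covi-Ox (-1.10 ± 0.27, adjusted p = 0.0158), and was not called without WT both 2 or 3 or WT Covi-Ox 2 or 3 (adjusted p 0.0543 to 0.0711). Infiltrating monocyte markers summed to 1173 to 1306 in WT both and 459 to 512 in WT Covi-Ox, a difference that was mostly Fn1. Of 10 tested, 3 were called higher: Fn1, Ms4a4c and S100a4. A positive difference was seen in 8 of the 10, and their median was 0.87 beside Covi-Ox and -0.25 on chow. S100a4 lost its call when any 1 of the 6 arrays was left out (adjusted p 0.0589 to 0.155). Ccr2 (-0.04) was not called, nor was F13a1, with 114, 82.2 and 101 in WT both, against 194, 148 and 161 in WT Covi-Ox. Plac8 and S100a6 were higher in WT both but not called. Plac8 had 35.5, 30.5 and 58.3 in WT both, against 21.0, 20.2 and 18.1 in WT Covi-Ox. S100a6 had 57.5, 63.5 and 89.3 in WT both, against 43.6, 30.7 and 21.2 in WT Covi-Ox. Chil3 and Vcan were below the array median on all 6 arrays. Neutrophil markers summed to 1125 to 1238 in WT both and 951 to 982 in WT Covi-Ox, with S100a8 at 125, 179 and 108 in WT both, against 27.2, 23.7 and 14.7 in WT Covi-Ox (2.66 ± 0.63, adjusted p = 0.0111). S100a8 was not called without WT both 2 or WT Covi-Ox 3 (adjusted p 0.0569 to 0.0578), and Ly6g, Elane and 5 further markers were below the array median on all 6 arrays. On chow the difference of S100a8 had the opposite sign and was not called, with 822, 517 and 258 in WT cuprizone, against 1379 and 1300.1 in WT control (-1.48, adjusted p = 0.294), and the difference of the effects, 4.15 ± 0.95, was not called (adjusted p = 0.189). Over the 9 neutrophil markers tested the median was 0.40 beside Covi-Ox and -0.84 on chow.

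T cell markers summed to 385 to 439 in WT both and 565 to 577 in WT Covi-Ox, where Il7r, the interleukin-7 receptor (-1.17 ± 0.13, adjusted p = 8.20e-06), accounted for the called fall and Cd3d and Cd4 lay below the median. Oligodendrocyte markers summed to 476 to 481 in WT both and 478 to 525 in WT Covi-Ox, with overlap, and Mbp, the myelin basic protein, had 82.9, 76.4 and 81.4 in WT both, against 90.6, 77.6 and 77.5 in WT Covi-Ox (adjusted p = 0.941). In the endothelial list Flt1, a VEGF receptor, rose (2.37 ± 0.26, adjusted p = 6.96e-06), while Cldn5 and Kdr were below the median on all 6 arrays. Pecam1, the adhesion molecule CD31, fell, with 41.7, 29.9 and 50.7 in WT both, against 79.8, 60.6 and 54.2 in WT Covi-Ox (-0.68 ± 0.19, adjusted p = 0.0304), but was not called without WT both 1 or 2 or WT Covi-Ox 1 or 2 (adjusted p 0.0618 to 0.182). In the astrocyte list the glutamate transporter Slc1a3 fell, with 154, 127 and 133 in WT both, against 228, 183 and 181 in WT Covi-Ox (-0.51 ± 0.14, adjusted p = 0.0242), but was not called without WT both 2 or 3 or WT Covi-Ox 1 (adjusted p 0.0842 to 0.125). Gfap and Aqp4 and the neuronal Rbfox3 and Stmn2 were below the median.

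Dendritic cell markers summed to 2197 to 2436 in WT both and 3310.2 to 3449 in WT Covi-Ox. The difference was mostly Siglech, also on the homeostatic microglia list, with 1515, 1381 and 1472 in WT both, against 2346, 2317 and 2337 in WT Covi-Ox. Klrd1, a lectin-like receptor (-1.22 ± 0.30), also fell, and Xcr1 and Clec9a were below the median. Klrd1 was not called without WT both 1 or 2 or WT Covi-Ox 1 (adjusted p 0.0718 to 0.102). Astrocyte markers summed to 398 to 433 in WT both and 468 to 499 in WT Covi-Ox and B cell markers to 307 to 308 in WT both and 325 to 379.7 in WT Covi-Ox. Oligodendrocyte precursor markers summed to 309 to 332 in WT both and 278 to 298 in WT Covi-Ox, where Cspg4, a proteoglycan also on the pericyte list, rose (0.91 ± 0.18) and Pdgfra and Olig2 were below the median. Endothelial markers summed to 362 to 414 in WT both and 301 to 314 in WT Covi-Ox. That difference was mostly Flt1, with 109, 158 and 120 in WT both, against 24.5, 23.1 and 26.5 in WT Covi-Ox. Pericyte markers summed to 276 to 301 in WT both and 261 to 268 in WT Covi-Ox, and Cspg4 was the only one called. Natural killer cell markers summed to 187 to 193 in WT both and 174 to 187 in WT Covi-Ox, with 9 of 10 below the median on all 6 arrays. Neuronal markers summed to 202 to 214 in WT both and 231 to 245 in WT Covi-Ox, ependymal ones to 258 to 283 in WT both and 226 to 295 in WT Covi-Ox and erythroid ones to 61.4 to 70.0 in WT both and 61.1 to 74.7 in WT Covi-Ox.

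The effect of cuprizone on chow (WT cuprizone minus WT control, 3 and 2 arrays that share none with the 6) was smaller in count: 213 genes were higher (1.80%) and 83 lower (0.702%), 296 in all (2.50%). That count was 69 without WT control 1, 87 without WT control 2 and 126 without WT cuprizone 3. Of the 550 genes higher beside Covi-Ox, 175 were also called higher on chow (31.8%), which is 82.2% of the 213. The falls overlapped less, 25 genes, or 6.67% of the 375 and 30.1% of the 83, and no gene was called in opposite directions. Over the 550, 524 had a positive difference on chow, as had 47.0% of all genes, with a median of 0.71 beside Covi-Ox and 0.47 on chow. Over the 375, 317 were negative on chow, with medians of -0.50 and -0.24. These genes were chosen by the Covi-Ox comparison. Chosen on chow, the 213 had medians of 0.95 beside Covi-Ox and 0.92 on chow, and the 83 had -0.32 and -0.63. Across genes, which are not independent replicates, the effects correlated with a Pearson r of 0.627 and a Spearman rho of 0.447.

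The late DAM list had 24 of 26 called beside Covi-Ox and 20 on chow, with medians of 1.69 and 1.59. Among its members Cst7 differed by 4.05 and 4.10, and Lpl by 3.76 and 3.36. The homeostatic list had 15 and 2 called lower, with medians of -0.40 and -0.24. In the interferon list the medians were 0.97 and 0.81, with 22 and 15 called higher. In the glycolysis list they were 0.85 and 0.54, with 15 and 9 called higher. No member of these 4 lists passed the test of the difference between the effects.

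That test, the effect beside Covi-Ox minus the effect on chow, passed for 3 genes (0.0254%), against 785 at an unadjusted p under 0.05. Olr1 rose more beside Covi-Ox: it had 276, 267 and 302 in WT both, against 26.3, 20.5 and 21.3 in WT Covi-Ox, and, on chow, 74.6, 39.8 and 43.1 in WT cuprizone, against 15.3 and 16.4 in WT control, so the effects were 3.64 and 1.67 and their difference 1.97 ± 0.27 (adjusted p = 0.00309). Tagap, a GTPase-activating protein of lymphoid and myeloid cells, had 543, 543 and 619 in WT both, against 1375, 1234 and 1121 in WT Covi-Ox, and, on chow, 640.0, 764 and 753 in WT cuprizone, against 610.2 and 555 in WT control. Its effects were -1.13 and 0.30 (difference -1.43 ± 0.17, adjusted p = 0.000634). All 3 WT Covi-Ox arrays were above the other 8 WT arrays in Tagap. Ccn1, a secreted matricellular protein, had 76.8, 56.0 and 75.7 in WT both, against 144, 170.3 and 213 in WT Covi-Ox, and, on chow, 83.4, 146 and 117 in WT cuprizone, against 82.1 and 74.9 in WT control, with effects of -1.34 and 0.52 (difference -1.86 ± 0.29, adjusted p = 0.012). The Tagap difference was called in every alternative; with only the 11 WT arrays fitted, those of Olr1 and Ccn1 had adjusted p-values of 0.0712 and 0.139. The Olr1 difference was also not called without WT control 2 (adjusted p = 0.0588), nor that of Ccn1 without WT both 2, WT control 1 or WT control 2 (adjusted p 0.0534 to 0.134).

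The count depended on WT cuprizone 3, which had an immediate-early mean of 8.57 against 9.75 and 9.78 on the other arrays of its group and lies apart from them. When it was left out the difference passed for 32 genes, 25 with the larger effect beside Covi-Ox, among them Fn1 (2.83), Ch25h (2.39), Atp6v0d2 (2.04), Egln3 (1.74), Gpnmb (1.53) and Igf1 (1.01), and Gpr165 (-1.22) with the more negative one. On all arrays Fn1 had 112, 145 and 1061 in WT cuprizone, against 30.9 and 38.9 in WT control and a difference of the effects of 1.81 ± 0.72 (adjusted p = 0.678). Whether the array or the diet sets these differences was not tested.

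**Figure D5:**
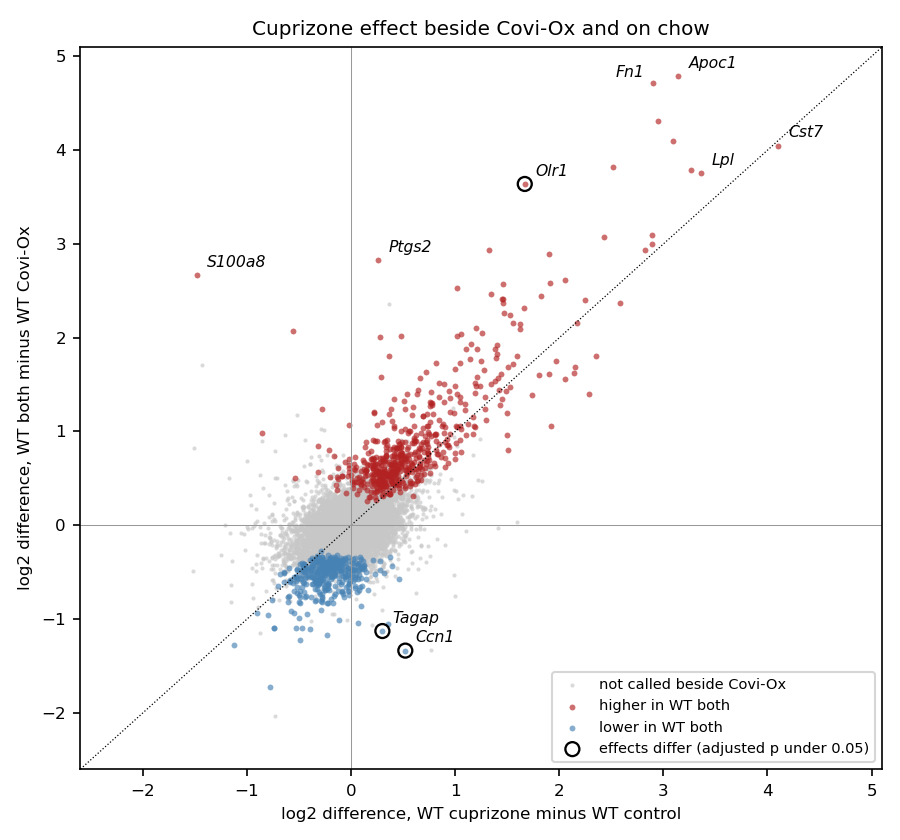
Log2 difference of WT both minus WT Covi-Ox (y axis) against WT cuprizone minus WT control (x axis) for 11830 genes, with equal effects on the dotted line. Rings mark Olr1 above the line, and Tagap and Ccn1 below it, the 3 genes whose effects differ at an adjusted p under 0.05.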

How the data were processed

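Sorted WT and Trem2 knockout microglia were measured on 22 MoGene 1.0 ST arrays. The authors deposited linear intensity, 1 value for each probe set and array, made with RMA per the submitters' processing notes, with version, settings and genome build not given in the sources used here. Log2 was taken here. Of 28098 probe sets, the 21640 that the platform table gives 1 gene were kept, with the brightest standing for its gene. A gene was tested if 2 or more arrays had it above their 50th percentile, as 11830 of 19937 did. limma 3.58.1 in R 4.3.3 fitted 8 group means over all 22 arrays (14 residual degrees of freedom), and Benjamini-Hochberg adjustment ran over all genes. The number of arrays limits the precision: the median standard error was 0.14. In arrays simulated with the spread fitted over all 22 arrays, 62% of genes set to a 1.5-fold change were called. The share was 98% at 2-fold and 100% at 4-fold, with 8 false calls among 11830 genes. The simulation gave all arrays the same spread within a gene, so arrays that stand apart, such as the 3 low in immediate-early genes, were not modelled. These shares may therefore not hold for the real arrays. Il1b, whose difference was above 2-fold, was not called, so a missing call does not show a change under 2-fold.

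The members, the 60 gene lists and the alternatives were chosen with earlier results of these data known. Named genes are the 15 largest rises and 12 largest falls with non-overlapping groups (unnamed loci left out), up to 4 called members of each list and a set of DAM, homeostatic and antioxidant genes; other genes, and the printed promoters, were chosen after their values were seen. No probe set belonged to Spp1 alone, and Nqo1 and Mki67 fell under the filter. Deviations of same-numbered replicates from their group means correlated with r of 0.0809, -0.0144 and 0.0373. Other pairs had r of -0.0933 to 0.0647. With 3 arrays in each group these values cannot decide whether the numbers pair the arrays, and the main fit left them unpaired. The alternatives were the filter, normalization, pseudocount, choice of probe set, arrays fitted, limma's options, thresholds, the immediate-early mean and each array left out.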

Additional observations from a re-analysis of the deposited data

Results flagged for a closer look

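The effect of cuprizone differed between mice fed Covi-Ox and mice on chow, by limma's test of the difference itself, for 3 genes. For Olr1 the effect beside Covi-Ox minus that on chow was 1.97 (adjusted p = 0.00309), for Tagap -1.43 (adjusted p = 0.000634) and for Ccn1 -1.86 (adjusted p = 0.012), all on the log2 scale. In Olr1 all 3 arrays of WT both and all 3 of WT cuprizone were above those of their controls. Tagap and Ccn1 were lower in WT both than in WT Covi-Ox on every array, while their differences on chow, 0.30 and 0.52, were positive and not called (adjusted p = 0.229 and 0.225). With only the 11 WT arrays fitted, the differences of Olr1 and Ccn1 were not called. That of Olr1 was also lost without WT control 2 (adjusted p = 0.0588). That of Ccn1 was lost without WT both 2, WT control 1 or WT control 2 (adjusted p 0.0534 to 0.134).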

How the results depend on the processing

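Of 149 named genes called in WT both minus WT Covi-Ox, 107 kept their call with each of the 6 arrays left out in turn, 63 in every alternative run, and none reversed. The 925 calls became 531 to 659 with 1 array left out (531 without WT both 2, 564 without WT Covi-Ox 2, 603 without WT both 3), 1751 with array weights, 444 at an adjusted p under 0.01 and 168 at a change of at least 2-fold; the other alternatives gave 747 to 1370. WT cuprizone minus WT control had 296 calls, and 69 to 428 with 1 array left out (69 without WT control 1, 87 without WT control 2, 126 without WT cuprizone 3), 9 with only its own arrays, 176 with only the 11 WT arrays, 184 without the 3 arrays low in immediate-early genes, 183 with the replicate block, 104 at an adjusted p under 0.01 and 101 at 2-fold. The difference of the effects had 3 calls, and 1 (without WT control 2) to 32 (without WT cuprizone 3), 40 without the 3 low arrays and 27 with array weights. The causes of these shifts were not tested beyond the fewer samples or stricter thresholds named. With the replicate number as a replicate block, WT both minus WT Covi-Ox had 856 calls. Uncalled genes near 0 changed sign: Mbp ran from -0.064 to 0.048 with 1 array left out (0.048 without WT Covi-Ox 1, 0.0086 without WT both 2), and Tyrobp was -0.039 with quantile normalization. Values near the array floor limit the folds of dim genes.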

Other observations

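Some families outside the lists stood out, and they were chosen after their values were seen, so they carry no test as groups. The shares over all genes tested, for every family here, were 3.17% lower and 4.65% higher. Of 266 zinc finger protein genes (Zfp) tested, 26 were lower in WT both than in WT Covi-Ox and 1 was higher. A negative difference was seen in 218 of them. Their median was -0.19, against -0.03 over all genes, and it was -0.08 for cuprizone on chow. Among these genes, Zfp418 had 17.5, 12.5 and 13.7 in WT both, against 38.7, 23.4 and 29.3 in WT Covi-Ox (-1.05 ± 0.22), below or near the array medians. Of 54 cytosolic ribosomal protein genes 16 were higher and none lower (median 0.26). In the SLAM family, receptors of leukocyte contact, 6 of 8 rose, and 3 of 7 annexins, which bind membranes with calcium, rose.

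Single genes that no list holds also rose. Hpse, heparanase, had 151, 119 and 118 in WT both, against 22.1, 23.3 and 19.6 in WT Covi-Ox (2.57 ± 0.41, adjusted p = 0.000402). Hcar2, the receptor for hydroxycarboxylic acids such as ketone bodies, had 178, 204 and 111 in WT both, against 34.0, 45.3 and 36.9 in WT Covi-Ox (2.05 ± 0.24, adjusted p = 1.25e-05). Cxcr4, the receptor of the chemokine CXCL12, had 1071, 1075 and 1185 in WT both, against 202, 269 and 283 in WT Covi-Ox (2.16 ± 0.25, adjusted p = 1.09e-05). All 3 were higher on each array of WT both than on any of WT Covi-Ox. Acod1, which makes itaconate, rose by 1.40 ± 0.22, the inhibitory receptor Lilrb4a by 1.92 ± 0.20 and Pdcd1, the receptor PD-1, by 1.27 ± 0.22. Ifnb1, interferon beta, had 87.7, 28.3 and 138 in WT both, against 16.1, 17.2 and 16.9 in WT Covi-Ox (2.07 ± 0.53, adjusted p = 0.0196), and was not called without WT both 1 or 3 or WT Covi-Ox 1, 2 or 3 (adjusted p 0.056 to 0.119). Its difference on chow was -0.55 and not called.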
